A study of Oryza sativa with 12 samples.

Results

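Roots of the F1 hybrid between the rice cultivars C bao and Jamaica were compared with roots of the parent Jamaica. The comparison used 4 of the 12 Affymetrix rice arrays of the series, 2 of F1 hybrid roots and 2 of Jamaica roots, chosen by the genotype and tissue given for each sample. C bao roots (2 arrays) served to place the second parent for the same genes. The leaves of F1 hybrid and Jamaica (2 arrays each) served as a separate set of arrays for the same genotype difference. All roots were 7 days old and all leaves 4 weeks old, so tissue and age cannot be told apart. No group carried an added treatment or transgene in the labels, and the sources used here gave neither the direction of the cross nor the growth conditions. The labels do not say that the 2 arrays of a group came from separate plants, so p-values cover array-to-array spread alone, which may be technical. With 2 arrays a group, precision is limited throughout.

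Hybrid weakness is poor growth of offspring whose parents both grow normally, and the series title ties it to the stress response. Plant cells answer drought, cold and osmotic stress partly through the hormone abscisic acid and through DREB1 transcription factors, which switch on genes for protective proteins such as dehydrins. Wounding and herbivory act largely through jasmonate, whose JAZ repressor proteins are themselves made when the hormone is sensed. In waterlogged or oxygen-poor roots, plants make nonsymbiotic haemoglobins and the fermentation enzyme pyruvate decarboxylase. Each of these groups held genes that separated the hybrid from Jamaica.

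All 57258 rice probe sets were tested with limma on log2(signal + 16), and a probe set was called at an adjusted p under 0.05 (Benjamini and Hochberg over all probe sets). Changes below are log2 differences of F1 hybrid root minus Jamaica root, with the limma standard error (SE). The spread behind each SE and p-value was estimated from all 12 arrays, leaves included. A gene with widely spread leaf arrays can therefore have a large SE although its root arrays lie close together. Because 16 was added to each signal, changes of dim probe sets are understated, and no detection calls were at hand to say which signals lay above background. Replicate root arrays correlated at r = 0.97 in each of the 3 genotypes. Even so, 13.1% of probe sets in F1, 13.5% in C bao and 13.8% in Jamaica were more than 2-fold apart between the 2 root arrays. Median signals were 62.5 and 64.2 on the F1 root arrays, against 50.1 to 51.8 for the 4 parental root arrays, although all arrays had been scaled to nearly the same trimmed mean. Over all probe sets the median change was 0.07, or -0.17 with each array centred on its median. Root identity was checked on the photosynthesis list: its 15 genes averaged 8.03 to 8.54 on the log2 scale in F1 and Jamaica roots and 12.72 to 13.85 in their leaves. In C bao roots they averaged 9.31 and 9.58.

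Of the 57258 probe sets, 1802 were called between F1 hybrid and Jamaica roots (3.15%), 1230 higher in the hybrid (2.15%) and 572 lower (0.999%). The count depended on single arrays: it was 698 and 714 without F1 root replicates 1 and 2, and 806 and 960 without Jamaica root replicates 1 and 2. With median-centred arrays F1 hybrid root minus Jamaica root gave 944 higher and 1276 lower, while quantile scaling gave 1066 higher and 647 lower. The balance between rises and falls therefore depended on which scaling was used. The rises were the larger: their median was 2.34 against -1.63 for the falls, and 198 rises but 22 falls exceeded 16-fold. An unnamed remainder was large, since 692 of the called probe sets were not paired with a single gene and 192 had a gene with an informative name. Of the 89 called genes named by rule, 37 kept their call when any 1 array was left out and 52 lost it without at least 1. Counted with 1 probe set a gene, 943 of 17905 genes were called (5.27%), and 622 genes were higher (3.47%) and 321 lower (1.79%).

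Of the rises that could be named, those of greatest size were in dehydrins and other late-embryogenesis proteins, which protect cells during water loss. Some called probe sets without an informative gene name rose as far. RAB21 (LOC4350454), a dehydrin, read 30332 and 42336 on the F1 arrays, 5.6 and 229.7 on the Jamaica arrays and 133.1 and 136.7 on the C bao arrays. Both parents were low and the hybrid arrays lay far above them, but the Jamaica pair was widely spread. The change was 8.94 (SE 1.5, adjusted p = 0.0078). The call was lost, with an adjusted p of up to 0.094, when Jamaica root replicate 1 or either F1 root array was left out. RAB16C (LOC4350452) read 15137 and 15686 in F1, 52.8 and 35 in Jamaica and 45.1 and 4.8 in C bao. It rose by 8.02 (SE 0.97, adjusted p = 0.0011), with no overlap of the hybrid and either parent. RAB16B (LOC4350453) rose by 7.94 and RAB16D (LOC4350451) by 7.21, so the 4 dehydrin genes that lie side by side in the RefSeq gene order with 0 genes between them all rose. The root arrays of RAB16B lay close, at 18387 and 15137 in F1 and 51.9 and 52.5 in Jamaica. Its F1 leaf arrays read 103.7 and 5800, a spread that enters its SE of 1.29. RAB16B lost its call without any 1 of the 4 arrays compared (adjusted p up to 0.073). The 4 dehydrin genes are similar in sequence, and how far their probe sets share transcripts was not tested.

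RAB16D differed from its neighbours in C bao. Its F1 signals were 24678 and 29964, its Jamaica signals 143.8 and 194.4 and its C bao signals 1175.6 and 734.6. C bao therefore stood above Jamaica (2.37, adjusted p = 0.036) and below the hybrid (4.85, adjusted p = 0.00068), whereas for RAB21, RAB16B and RAB16C it did not differ detectably from Jamaica. PM1 (LOC4338635), a stress-induced membrane protein, read 19210 and 17872 in F1, 263.8 and 177.8 in Jamaica and 138.3 and 95.8 in C bao. It rose by 6.32 (SE 0.46, adjusted p = 2.8e-05). Its 2 probe sets disagreed, the other showing a change of 0.0. Emp1 (LOC4338499), a seed protein of the Em type, rose by 5.84, from 64.9 and 43.2 in Jamaica to 3889 and 4005 in F1. The dehydrin-like gene rab25 (LOC4326935) rose by 5.20, a call lost without Jamaica root replicate 1 or either F1 root array (adjusted p up to 0.062). LEA19 (LOC4339480) changed by 5.05 without passing the test.

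**Figure D1:**
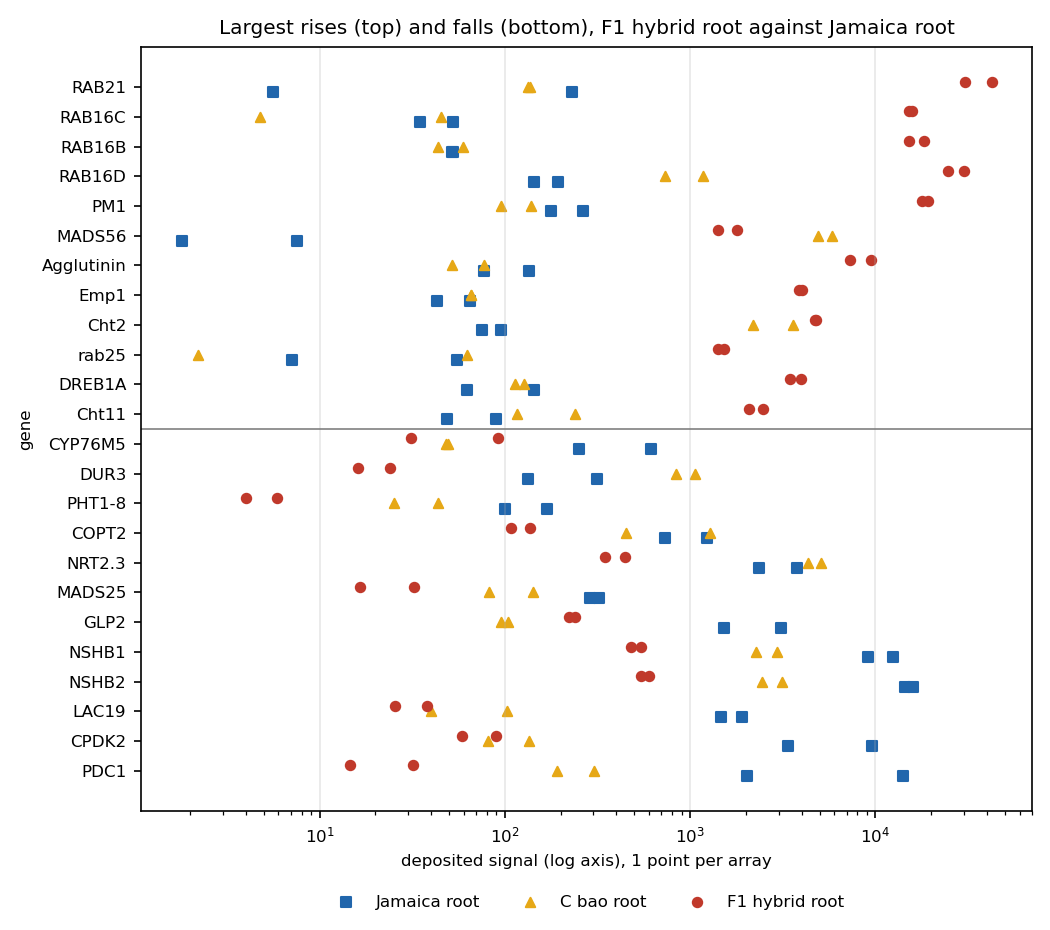
Signals of the 12 largest rises and the 12 largest falls among named genes, 1 point per root array on a log axis, with Jamaica, C bao and the F1 hybrid in separate symbols. For RAB21 the F1 arrays read 30332 and 42336 and all 4 parental arrays 229.7 or less, while for MADS56, Cht2 and CPDK2 the C bao arrays lay nearer to the hybrid than to Jamaica.

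The abscisic acid and dehydrin list held 43 genes, of which 10 rose, 0 fell and 33 did not pass. Its median change was 0.42 against 0.03 over all 17905 genes, and 10 rose under quantile scaling and under median centring too, where 0 and 2 fell. Besides the genes above, ABA8OX1 (LOC9269675), an enzyme that breaks abscisic acid down, read 4732 and 5713 in F1 and 965.2 and 1038 in Jamaica (2.36, adjusted p = 0.00033). PP2C30 (LOC4332374), a phosphatase of the abscisic acid pathway, rose by 2.63 (adjusted p = 0.032). C bao stood at the Jamaica level for 8 of the 10 genes and between Jamaica and the hybrid for 2. Counts for this list and those below are to be read beside the 3.47% of all genes called higher and 1.79% called lower.

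DREB1 factors made up most of the rises among cold and drought regulators. Of 9 genes in the DREB and ERF list, 4 rose, 0 fell and 5 did not pass, with 4 rises and 1 fall under median centring. DREB1A (LOC4347620) read 3455 and 3944 in F1, 62.5 and 144.0 in Jamaica and 126.3 and 113.3 in C bao. The hybrid arrays were the high ones and the parents overlapped each other, with a change of 5.05 (SE 0.34, adjusted p = 1.9e-05). DREB1B (LOC4347618), separated from DREB1A by 1 gene in the RefSeq order, read 3310 and 4489 in F1 against 119.8 and 198.1 in Jamaica (4.50, adjusted p = 4.5e-05). DREB1G rose by 2.73 and DREB1E by 3.27, the latter lost without either F1 root array, Jamaica root replicate 2 or either C bao leaf array (adjusted p up to 0.25). Within the same list, DREB2A, a drought factor, read 176.3 and 164.9 in F1 and 77.6 and 145.4 in Jamaica and did not pass (0.60, adjusted p = 0.60). DREB1C read between 1.7 and 39.5 in F1 and Jamaica roots, with overlapping arrays.

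Jasmonate genes gave 6 rises and 2 falls among 39, against 7 and 2 under quantile scaling and 5 and 2 under median centring. JAZ13 (LOC4348531), a JAZ repressor, read 3768 and 3755 in F1, 94.8 and 175.9 in Jamaica and 182.4 and 248.4 in C bao. The hybrid arrays lay above all parental arrays, with a rise of 4.70 (SE 0.28, adjusted p = 8.1e-06). TIFY11A (LOC4331832), of the same family, read 3044 and 3899 in F1 and 102.1 and 433.7 in Jamaica (3.91, adjusted p = 0.003). BHLH148 (LOC4334060), a factor that binds JAZ proteins in rice, rose by 2.99, JAZ10 by 2.55 and JAZ8 by 1.53. AOS1 (LOC4334233), allene oxide synthase of the jasmonate pathway, rose by 1.36 (adjusted p = 0.019). The falls were OPR5 (LOC4340485), an oxophytodienoate reductase by name, from 27422 and 22981 in Jamaica to 6503 and 6977 in F1 (-1.90, adjusted p = 0.035), and JAR1 (LOC4339756), which joins jasmonate to isoleucine (-0.84, adjusted p = 0.034). Both falls were lost without any 1 of the 4 arrays compared or either C bao leaf array, and that of OPR5 also without either C bao root array. The second OPR5 probe set changed by -0.86, and JAR1 is held by the auxin list as well.

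Defence genes are given by list, to be read beside the 5.27% of all genes called. Agglutinin (LOC4335068), a lectin, read 7318 and 9477 in F1, 134.8 and 77.4 in Jamaica and 77.1 and 51.6 in C bao (6.14, SE 0.50, adjusted p = 6.4e-05). It was the 1 rise among 39 pathogenesis-related proteins, lectins and defence regulators. The 1 fall was EDR1-like (LOC4342105), named after a kinase that restrains defence in Arabidopsis, which went from 1684 and 1046 to 267.5 and 390.8 (-1.98, adjusted p = 0.01), a call lost without F1 root replicate 1 or Jamaica root replicate 1 (adjusted p up to 0.13). Of 15 chitinases and glucanases, which attack fungal walls, 2 rose and 0 fell by their brightest probe sets. Over all 19 probe sets of the list, 3 were higher and 0 lower. The chitinase Cht2, described below, rose by 5.57 in a probe set that was not its brightest. Cht11 (LOC4331519) read 2079 and 2480 in F1, 89.2 and 48.7 in Jamaica and 116.5 and 238.2 in C bao (4.79, adjusted p = 8.5e-05). Cht9 (LOC4338719) read 18386 and 11434 in F1, 1667 and 1142 in Jamaica and 0.9 and 37.5 in C bao, so the 3 genotypes formed 3 separate levels (3.38, adjusted p = 0.0044, up to 0.083 without F1 root replicate 1 or Jamaica root replicate 2). Of 6 WRKY factors, WRKY71 (LOC4328512) rose by 2.23, and by 2.19 in its second probe set, and 0 of 8 NAC factors passed. Pi21 (LOC4335725), a blast susceptibility gene in rice, read 300.5 and 281.7 in F1 and 55.5 and 41.0 in Jamaica (2.27, adjusted p = 0.00027), while its second probe set showed 1.0.

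Sugar transport and breakdown held 6 rises among 51 genes and 0 falls, but 5 rises and 4 falls under median centring. The median change of this list was -0.09. SWEET12 (LOC4332825), a sugar exporter, read 2921 and 2709 in F1, 88.6 and 288.7 in Jamaica and 48.6 and 12.3 in C bao (3.99, adjusted p = 0.0065, up to 0.078 without Jamaica root replicate 1 or an F1 root array). SWEET1B (LOC4338851) read 459.2 and 226.3 in F1 and 8 or less on all 4 parental arrays. SUS4 (LOC4332788), a sucrose synthase, read 4877 and 3880 in F1, 564.8 and 393.4 in Jamaica and 147.5 and 191.8 in C bao (3.16, adjusted p = 0.00014). TPP1 (LOC4330221), a trehalose phosphate phosphatase, rose by 2.51 (adjusted p = 2.9e-05), TPP7 by 1.44 and the cell-wall invertase CIN1 by 1.26.

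Calcium signalling gave 9 rises among 78 genes and 0 falls, with 6 rises and 3 falls under median centring. Over all genes 3.47% were higher and 1.79% lower. The median change of the calcium list was 0.05 against 0.03 over all genes, so the list as a whole hardly moved. CML15 (LOC4338633), a calmodulin-like protein whose gene is the direct neighbour of PM1 in the RefSeq order, read 3278 and 3558 in F1, 175.2 and 251.1 in Jamaica and 254.6 and 333.3 in C bao (3.92, adjusted p = 0.00029). CIPK14 (LOC4351307), a kinase driven by calcium sensors, rose by 2.26, CML14 by 2.15 and CML16 by 1.85. C bao was at the Jamaica level for 6 of the 9.

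Rises were also seen in a few redox, ethylene, metal-binding, water channel and heat shock genes. They are to be read beside the 3.47% of all genes called higher. In the peroxide list 3 of 31 genes rose and 1 fell, and in the ethylene list 1 of 21 rose and 1 fell. In the iron, zinc and copper list 2 of 62 rose and 4 fell, and in the potassium, sodium and water transport list 4 of 64 rose and 2 fell. R1C-Prx (LOC4344045), a peroxiredoxin of the seed type held by both the abscisic acid and the peroxide lists, read 4272 and 2690 in F1 and 164.9 and 194.2 in Jamaica (4.13, adjusted p = 0.00027). ACO1 (LOC4347225), the last enzyme of ethylene synthesis, read 586.9 and 531.3 in F1 and 10 and 12.6 in Jamaica (4.40, adjusted p = 0.011), and its call was lost without any 1 of the 4 arrays compared (adjusted p up to 0.099). The F1 leaf arrays of ACO1 read 8612 and 984.7, a spread that enters its SE of 0.78. The metallothionein MT2A rose by 2.29 in the probe set of highest signal, with 2 of its 4 probe sets called. Among water channels, TIP3-1 (LOC4348981), the vacuolar channel of seeds, rose by 3.17 and PIP2-4 (LOC4343119), a plasma membrane channel, by 2.92. Of 44 heat shock genes, 3 rose (HSP16.9B, CLPB1 and HSP17.9A) and 0 fell, or 2 fell under median centring, and each of these rises was lost when an F1 root array was left out.

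The largest falls included genes linked to low oxygen. NSHB2 (LOC4332123), a nonsymbiotic haemoglobin, read 542.9 and 597.2 in F1, 15965 and 14409 in Jamaica and 2431 and 3115 in C bao. The 3 genotypes were separate, with C bao near the middle on the log2 scale, and the hybrid was 4.70 below Jamaica (change -4.70, SE 0.25, adjusted p = 4.7e-06). NSHB1 (LOC4332166) read 544.6 and 481.5 in F1, 12505 and 9096 in Jamaica and 2267 and 2945 in C bao on the probe set with its largest change (-4.34, adjusted p = 6.4e-05). That probe set is of a type that can also catch related transcripts, and the brightest of the 3 NSHB1 probe sets changed by -2.05 (adjusted p = 0.051). Probe sets of these types also stood for CPDK2, NRT2.3, HAK1, PHT1-4, LOGL1, DUR3, TIP3-1, MT2A, ASA2, OsPP2C12 and Pi21.

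PDC1 (LOC4339066), a pyruvate decarboxylase, read 32.0 and 14.6 in F1, 14077 and 2022 in Jamaica and 191.1 and 303.3 in C bao. The Jamaica arrays differed from each other several-fold, yet all 3 genotypes were separate, and the change of -7.13 (SE 0.77, adjusted p = 0.00048) stayed called when any 1 of the 12 arrays was left out. CPDK2 (LOC4333181), listed with the synonym PPDK2 for pyruvate phosphate dikinase, read 90.0 and 58.6 in F1, 9611 and 3367 in Jamaica and 135.9 and 81.6 in C bao (-6.00, adjusted p = 4.6e-05). Here C bao overlapped the hybrid. The fermentation genes did not all pass: of 14 haemoglobin and fermentation genes, counted by their brightest probe sets, 2 fell, 1 rose (SUS4) and 11 did not pass. Their median change was -0.41 against 0.03 over all genes. Under quantile scaling and under median centring 3 fell and 1 rose. Adh2, alcohol dehydrogenase, read 10463 and 11570 in F1 and 22365 and 20603 in Jamaica (-0.96, adjusted p = 0.52). PDC2 changed by -0.48 and SUS1 by -0.04.

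LAC19 (LOC4351005), a laccase of the family that helps polymerise lignin, read 38.0 and 25.4 in F1, 1908 and 1463 in Jamaica and 40.2 and 102.2 in C bao. Jamaica alone was high, with a change of -5.16 (SE 0.87, adjusted p = 0.008) that was lost without any 1 of the 4 arrays compared (adjusted p up to 0.087). Of 35 phenylpropanoid and lignin genes it was the 1 fall, beside 2 rises, CAD6 (1.91) and ROMT-17 (1.53). GLP2 (LOC4344846), a germin-like protein, read 238.4 and 222.2 in F1, 3104 and 1515 in Jamaica and 103.9 and 95 in C bao (-3.15, adjusted p = 0.005, up to 0.082 without Jamaica root replicate 1 or an F1 root array), and its second probe set changed by -1.84 without passing. The diterpenoid phytoalexin list, enzymes for antimicrobial compounds, had 1 fall and 0 rises among 16 genes, and all 16 estimates were below 0, with a median of -1.28. Under quantile scaling and median centring 2 fell. CYP76M5 (LOC4329721) read 91.5 and 31.0 in F1, 616.3 and 252.2 in Jamaica and 48.0 and 49.6 in C bao (-2.53, adjusted p = 0.045, up to 0.32 with 1 array left out). The list mean was 9.50 and 8.01 on the 2 Jamaica arrays, 7.70 and 7.5 on the F1 arrays and 6.29 and 7.40 on the C bao arrays. Jamaica replicate 1 was the array that stood above the rest.

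Transporters for nutrients made up a second group of falls. Of 29 nitrogen genes, 5 fell and 2 rose, with a median change of -0.54 and 6 falls under median centring. NRT2.3 (LOC4324249), a high-affinity nitrate transporter, read 445.4 and 348.9 in F1, 2344 and 3799 in Jamaica and 4341 and 5095 in C bao (-2.87, SE 0.41, adjusted p = 0.0028). Both parents were high and the hybrid low. The ammonium transporters AMT1 (-1.40, adjusted p = 0.0031) and AMT2-1 (-0.96, adjusted p = 0.021) fell, as did the urea transporter DUR3 (LOC4349520), which read 16.2 and 23.9 in F1, 132.9 and 314.5 in Jamaica and 839.2 and 1062 in C bao (-2.63, adjusted p = 0.012, up to 0.12 without Jamaica root replicate 2 or an F1 root array). ALN (LOC4337428), allantoinase, which releases stored nitrogen, fell by 1.46, a call lost without Jamaica root replicate 1 or either F1 root array. The rises were GLN1-3 (LOC4333896), a cytosolic glutamine synthetase, from 95.7 and 116.2 to 2084 and 1664 (3.95, adjusted p = 0.0089, up to 0.10 without any 1 of the 4 arrays compared), and GDH2 (1.58).

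COPT2 (LOC4338846), a copper transporter, read 107.7 and 136.5 in F1, 1240 and 733.3 in Jamaica and 451.8 and 1274 in C bao (-2.82, adjusted p = 0.0091, up to 0.12 without Jamaica root replicate 1 or an F1 root array). Among 62 iron, zinc and copper genes, COPT2, COPT1 (-1.34), YSL16 (-1.33) and YSL12 (-0.94) fell, and MT2A and IRT1, an iron transporter (1.93), rose. COPT1 and IRT1 lost their calls without any 1 of the 4 arrays compared. Median centring gave 8 falls there. Of 23 phosphate genes, PTH1-2 (-2.05) and PHT1-4 (-1.34) fell and 0 rose, and PHT1-4 was not called under quantile scaling. PTH1-2 lost its call without F1 root replicate 1 or Jamaica root replicate 2. PHT1-4 lost its call without Jamaica root replicate 1, either F1 root array or any 1 C bao array. PHT1-8, also among the largest falls (-2.81), was called in 1 of its 3 probe sets, a dim one at 4.0 and 5.9 in F1 and 100.3 and 168.2 in Jamaica, while its brightest changed by -0.39. The PHT1-8 call was lost without any 1 of the 4 arrays compared. HAK1 (LOC4335729), a potassium transporter, read 6773 and 6615 in F1 against 15501 and 15580 in Jamaica (-1.21, lost without any 1 of these 4 arrays), and the silicon exporter Lsi2 (LOC4331328) read 6035 and 7477 against 19356 and 20215 (-1.56). HAK1 and Lsi2 belong to the potassium, sodium and water transport list, where 4 of 64 genes rose and 2 fell. Of the 10 root markers, NRT2.3 and Lsi2 fell and IRT1 and RAA1 (1.07) rose. In bulk roots, fewer cells of a type and less RNA per cell cannot be told apart.

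The position of C bao was expressed as (C bao - Jamaica) / (F1 - Jamaica) of mean log2 values. A value near 0 means that C bao read like Jamaica, and a value near 1 that it read like the hybrid. Of the 1230 rises, C bao was at the Jamaica level (within 0.25 of 0) for 388 and at the F1 level (within 0.25 of 1) for 376. It stood between for 249, beyond F1 for 125 and beyond Jamaica for 92. Of the 572 falls, C bao was between for 149, at the Jamaica level for 141, at the F1 level for 136, beyond F1 for 99 and beyond Jamaica for 47. The hybrid and Jamaica values enter both the call and the position, so these counts are descriptions. Over the whole table, C bao and Jamaica roots differed at 1803 probe sets (3.15%), 1.6% higher and 1.55% lower in C bao. F1 and C bao roots differed at 2070 (3.62%), 2.29% higher and 1.32% lower in F1. Median centring turned that balance to 927 higher and 1822 lower, while quantile scaling gave 1047 higher and 848 lower. These comparisons share arrays with that of F1 and Jamaica roots. C bao root replicate 1 carried signals of seed-type genes that the other root arrays lacked, such as AMY1.1, an alpha-amylase, at 6142 against 1.9 on replicate 2, and 77.2% to 100% of the probe sets in each class kept their class without it (74.5% to 97.0% without replicate 2).

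**Figure D2:**
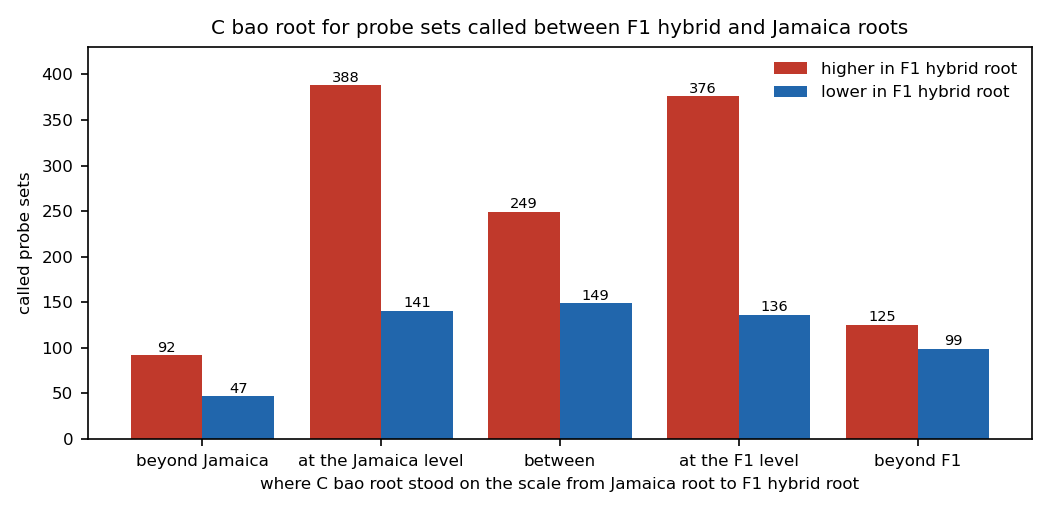
Number of called probe sets by where C bao root stood between Jamaica root (0) and F1 hybrid root (1), for rises and falls. Among rises the classes at the Jamaica level (388) and at the F1 level (376) were the tallest bars, while among falls no class exceeded 149.

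Genes for which C bao read like the hybrid separated Jamaica from both. MADS56 (LOC4349237), a MADS-box factor known in rice as a flowering regulator, read 1417 and 1783 in F1, 7.6 and 1.8 in Jamaica and 4916 and 5808 in C bao. Jamaica was near 0 signal, and the hybrid lay 6.29 above it (SE 0.26, adjusted p = 7.2e-07) but 1.74 below C bao (F1 minus C bao -1.74, adjusted p = 0.0044). In leaves MADS56 read 2500 and 3295 in F1, 16 and 5.9 in Jamaica and 4092 and 4687 in C bao, the same order.

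Cht2 (LOC4349267), a chitinase, read 4794 and 4725 in F1, 75.2 and 95.3 in Jamaica and 2179 and 3610 in C bao (5.57, SE 0.23, adjusted p = 7.2e-07). Only this probe set of its 3 was called, and the brightest changed by 0.47. OsPRDA1 (LOC4350378) read 708.3 and 675.1 in F1, 27.3 and 3.4 in Jamaica and 1165 and 1008 in C bao (4.61). OsC3H2 (LOC4327304), a zinc-finger protein that delays leaf senescence in rice, read 2113 and 1835 in F1, 86.2 and 111.3 in Jamaica and 2394 and 2236 in C bao (4.12, adjusted p = 1.2e-05). For these 3 genes the F1 and C bao roots did not differ detectably. OsPRDA1 and OsC3H2 were each called in 1 of 2 probe sets, the other changing by -0.24 and 0.37. AT15 (LOC4347960), an acyltransferase by name, gave 3.56 (adjusted p up to 0.16 without any 1 of the 4 arrays compared) and PIP2-4 gave 2.92, with C bao arrays of 5563 and 5669 beside 5290 and 6103 in F1 and 702.3 and 771.2 in Jamaica.

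For OsPP2C12 (LOC4328768), a protein phosphatase, C bao lay beyond the hybrid: 9263 and 11266 in C bao, 2739 and 3116 in F1 and 594.6 and 616.5 in Jamaica. The hybrid was 2.24 above Jamaica (adjusted p = 6.4e-05) and below C bao (F1 minus C bao -1.80, adjusted p = 0.00044). IAA3 (LOC4325890), an auxin response repressor, showed the same order of means (1.65), with 19093 and 17595 in C bao, 12381 and 14800 in F1 and 4874 and 3808 in Jamaica. GLB (LOC4337720), placed in the seed list, rose by 1.35 with C bao again highest. For IAA3 and GLB the difference between F1 and C bao did not pass (adjusted p = 0.41 and 0.068), and the second IAA3 probe set changed by 0.50 between F1 and Jamaica. Among falls of this kind, APG8D (LOC4349525), an autophagy protein, read 655.9 and 379.7 in F1, 1302 and 1311 in Jamaica and 7.7 and 16.6 in C bao (-1.36, adjusted p = 0.045, up to 0.35 with 1 array left out). ASA2 (LOC4332341), anthranilate synthase of the tryptophan pathway, and ta4 (LOC4329846) changed by -1.51 and -1.39, with C bao lowest for both, while a second ASA2 probe set changed by -0.25.

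Low Jamaica signals were common among these rises. Of the 376 rises with C bao at the F1 level, 206 (54.8%) read below 50 on both Jamaica root arrays, against 102 of the 388 (26.3%) with C bao at the Jamaica level and 45.0% of all probe sets. Over the whole array 211 probe sets read below 50 on all 4 Jamaica arrays, root and leaf, and above 50 on the other 8. Of these, 170 were called higher in F1 roots, but the selection itself placed F1 above Jamaica, so that direction was set in advance. The reverse for C bao, below 50 on its 4 arrays and above on the rest, held for 93 probe sets, and for F1 it held for 0. The limit of 50 was chosen after the data had been seen. Whether the probes pair equally well with the transcripts of each cultivar was not tested.

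Where C bao lay beyond Jamaica, its mean was farther from the hybrid than that of Jamaica. This class held 92 rises and 47 falls, of which the largest that could be named are given here. Among rises they were SWEET12, Cht9, TIP3-1 and SUS4. C bao was below Jamaica for Cht9 (C bao minus Jamaica -5.54, adjusted p = 0.00011) and SUS4 (-1.40, adjusted p = 0.023), while for SWEET12 (adjusted p = 0.15) and TIP3-1 (0.41) that difference did not pass. Among falls they were DUR3, STLP3 (-1.50), ADI1, a ferredoxin gene by its synonym (-1.46), and ALN, and for all 4 the C bao arrays were the highest. C bao differed from Jamaica for DUR3 (2.11, adjusted p = 0.038) and ADI1 (1.85, adjusted p = 0.012), and ADI1 was called in 1 of its 4 probe sets. STLP3 and ADI1 lost their calls without any 1 of the 4 arrays compared, and also without any 1 C bao array, root or leaf. ADI1 lost its call without either Jamaica leaf array as well. At the Jamaica level stood, among others, the falls NRT2.3, COPT2, PTH1-2 and OsCASPL1D1 (LOC4343098), a protein of the Casparian strip family by name, which read 1472 and 1813 in F1, 5742 and 6302 in Jamaica and 6322 and 8075 in C bao (-1.87, adjusted p = 0.033, up to 0.23 with 1 array left out). Between Jamaica and the hybrid stood, among others, PDC1, NSHB2, NSHB1 and MADS25, and for NSHB2 C bao differed from both (C bao minus Jamaica -2.46, adjusted p = 0.00024, and F1 minus C bao -2.24, adjusted p = 0.00079).

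Leaf arrays, which were not used to call the root difference except through the shared spread, gave the same genotype difference in a second tissue, where 1795 probe sets were called (3.13%). Of the 376 rises with C bao at the F1 level, 227 (60.4%) were called higher in F1 than in Jamaica leaves as well, and of the 125 beyond F1, 76 (60.8%). Of the 388 with C bao at the Jamaica level, 71 (18.3%) were, against 2.02% of all probe sets. Median leaf differences in the 3 classes were 2.22, 1.86 and 0.52. Among falls, 6 of 136 (4.41%) with C bao at the F1 level and 14 of 141 (9.93%) with C bao at the Jamaica level were called lower in leaves, against 1.12% of all probe sets. These shares were not tested against each other.

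**Figure D3:**
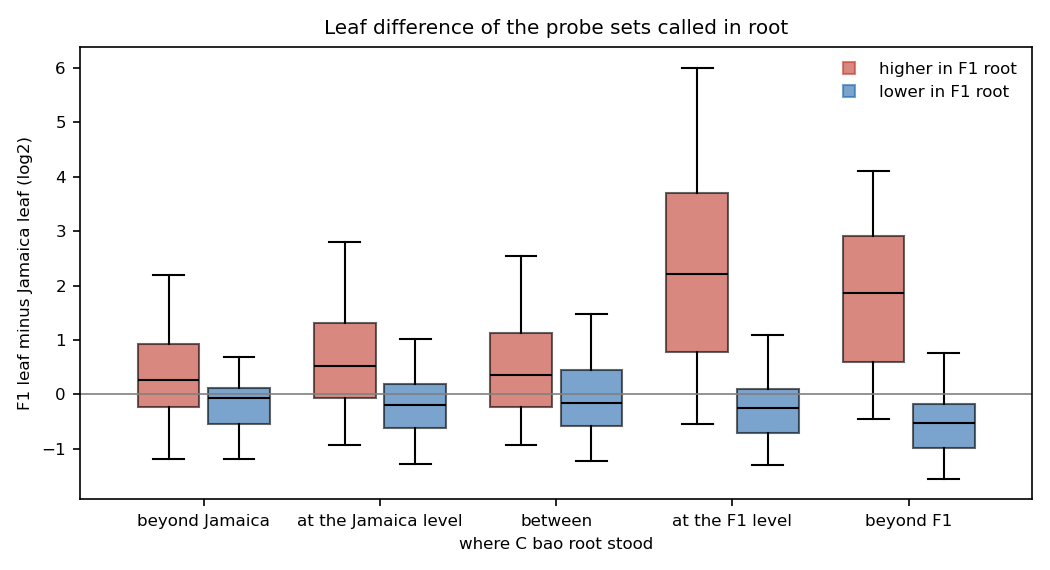
F1 leaf minus Jamaica leaf (log2) of the probe sets called in root, by where C bao root stood. Boxes span the quartiles with the median as a line, and whiskers run from the 5th to the 95th percentile. The rises with C bao at or beyond the F1 level had leaf medians of 2.22 and 1.86, while every other box had its median between -0.53 and 0.52.

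Among named genes, OsC3H2 differed by 4.51 in leaf and 4.12 in root, Cht2 by 5.08 and 5.57, and AT15 by 3.98 and 3.56. Of the genes with low C bao roots, CML15 (3.27, adjusted p = 0.0013) and DREB1B (2.55, adjusted p = 0.0029) were raised in F1 leaves too, whereas JAZ13 (0.42), PM1 (-0.36), Agglutinin (0.00) and Emp1 (0.05) did not pass there. RAB21 read 1047 and 25311 on the 2 F1 leaf arrays, so the leaf pair was too spread to place it (3.10, adjusted p = 0.33). The difference between root and leaf was itself tested as an interaction, and 641 probe sets passed (1.12%), 0.672% with a more positive difference in root and 0.447% with a more negative one. That balance of 385 to 256 became 268 to 497 under median centring, 1283 to 1880 without F1 leaf replicate 2 and 389 to 655 without Jamaica leaf replicate 2, and the total ran from 108 to 3163 with 1 array left out. Under quantile scaling the balance was 283 to 219. NSHB2 had opposite signs, -4.70 in root and 2.51 in leaf, where F1 read 1467 and 1117 and Jamaica 264.6 and 167.2. NSHB1 did likewise (2.43 in leaf). COPT1, OsCASPL1D1 and OPR5, called lower in F1 roots, read higher in F1 leaves by 1.52, 2.0 and 1.64, the last without passing there.

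**Figure D4:**
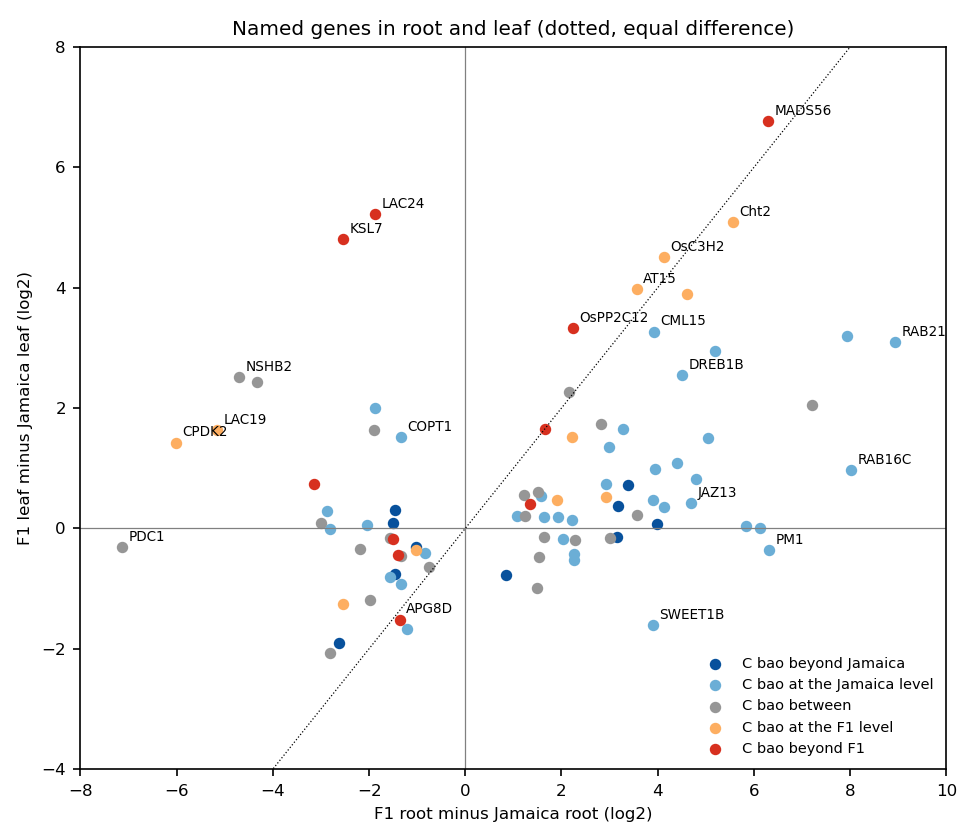
F1 minus Jamaica in root (horizontal) and leaf (vertical) for the 91 named genes, on the log2 scale, coloured by where C bao root stood, with a dotted line of equal difference. MADS56 (6.29 in root, 6.77 in leaf), Cht2 and OsC3H2 lie near the line, RAB16C and PM1 far to its right, and NSHB2, KSL7 and LAC24 above 0 in leaf and below 0 in root.

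The remaining lists are given by their counts, beside 5.27% of all genes called. Of 87 expansin and cell wall genes, 3 rose (CSLA5, GLU5 and GT43G) and 0 fell, though 2 rose and 2 fell under median centring. Of 71 auxin genes, 2 rose (IAA3 and ARF15) and 1 fell. Of 52 gibberellin, cytokinin and brassinosteroid genes, GA20OX3 rose (0.84) and LOGL1 (-1.56) and CKX11 (-1.03, second probe set 0.13) fell, with 0 rises under median centring. Potassium, sodium and water transport had 4 rises and 2 falls among 64, peroxide handling 3 rises and 1 fall among 31, and ethylene and methionine 1 rise (ACO1) and 1 fall (ARD1, -2.20, with its second probe set at 1.06) among 21. Of 80 dividing-cell genes, 1 rose, the histone H2B.10, which C bao roots shared. The calls of H2B.10, GT43G, GA20OX3, GLU5 and CKX11 were lost without any 1 of the 4 arrays compared. Those of GLU5 and CKX11 were also lost without any 1 C bao array. Seed storage and maturation had 2 rises (TIP3-1 and GLB) among 24. In the photosynthesis, ribosomal protein and glutathione transferase lists, of 15, 25 and 6 genes, 0 passed, and of 6 disease resistance genes Pi21 rose.

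**Figure D5:**
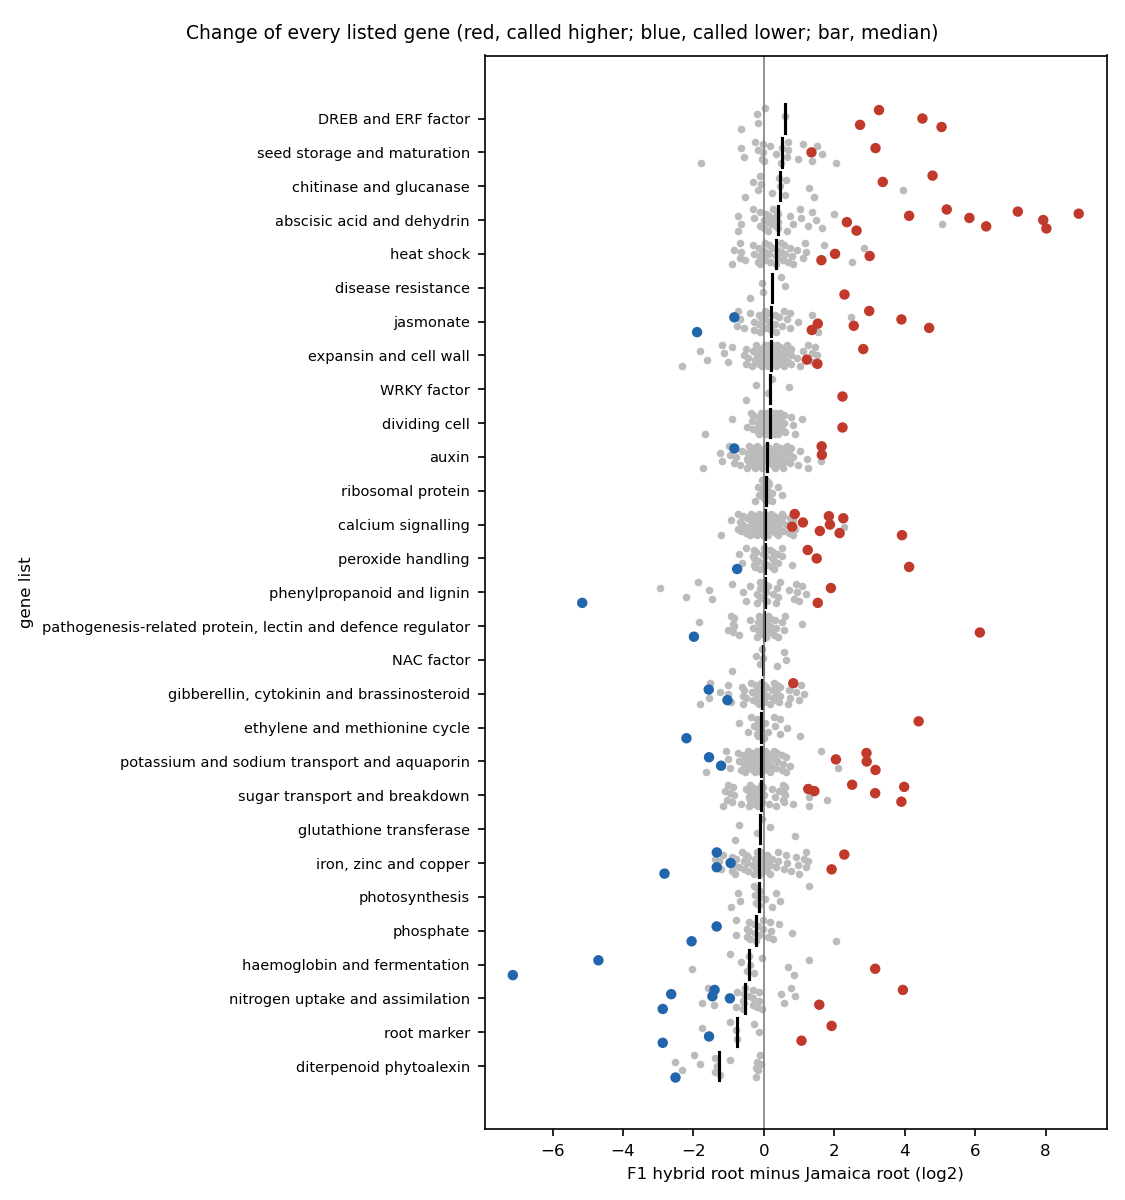
F1 hybrid root minus Jamaica root (log2) of every gene in each list, 1 point per gene by its brightest probe set, with called rises in red, called falls in blue, others in grey and the median as a bar. The abscisic acid list (10 rises of 43) reaches farthest to the right, haemoglobin and fermentation farthest to the left with PDC1 at -7.13, and most other points lie near 0.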

How the data were processed

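The authors deposited 1 table of intensity values on a linear scale for 12 Affymetrix rice arrays, made with MAS5 per the submitters' processing notes. Per the labels' protocols, RNA was column-purified and labelled by the one-cycle kit. Array trimmed means (2% from each end) were all 500.1, so the arrays had been scaled alike. The 123 control probe sets were left out, no filter on low signal was used, and 0 columns belonged to other samples.

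Log2(signal + 16) was fitted with limma 3.58.1 in R 4.3.3: 6 group means on all 12 arrays, empirical Bayes with trend, 6 residual and 4.603 prior degrees of freedom, and Benjamini-Hochberg over 57258 probe sets at 0.05. Tables and figures used Python 3.11.15. Genes came from the platform annotation and RefSeq symbols: 22436 probe sets had 1 gene, 95 several and 34727 none, and 2457 of 17905 genes had an informative name. No genome positions were used.

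Named genes were the 12 largest rises and falls with arrays that did not overlap and a mean signal of at least 100, up to 3 per list each way, 4 each way per C bao class and 4 each way for root minus leaf (91 genes). Genes named beyond that rule were chosen after their values were seen. The comparison, genes and 29 lists were chosen with earlier results of these data known. In simulated arrays with normal noise, changes were placed only in probe sets whose mean log2 value in Jamaica roots lay above a fixed level. A log2 change of 1 was recovered for 22 of 100 such probe sets and of 2 for 74 of 100, with 3 false among 99 calls. Recovery in dimmer probe sets was not simulated. Alternatives covered scaling, pseudocount, filters, moderation, array subsets, a replicate block and thresholds.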

Additional observations from a re-analysis of the deposited data

Results flagged for a closer look

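These named genes had an F1 minus Jamaica difference that itself differed between 7-day roots and 4-week leaves (interaction term in limma, adjusted p under 0.05). Each value is the root difference minus the leaf difference on the log2 scale, and tissue and age cannot be told apart. Replicate leaf arrays correlated at 0.936 (F1) and 0.947 (Jamaica), below the 0.968 and 0.967 of the root pairs. The part of that spread in these values was not tested.

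The difference was more positive in root for the dehydrins RAB16C (7.05) and RAB16D (5.16), for PM1 (6.68), Emp1 (5.79) and R1C-Prx (3.78), and for the lectin Agglutinin (6.13) and the chitinase Cht11 (3.98). It was also more positive for the regulators DREB1A (3.55), JAZ13 (4.28), WRKY71 (2.09) and CIPK14 (2.79). Among sugar genes SWEET1B gave 5.52 and SUS4 gave 3.31. For SWEET1B the leaf difference was -1.61. PIP2-4 (2.40), MT2A (2.49), Pi21 (2.69), APX8 (2.49) and GA20OX3 (1.62) complete the group.

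The difference was more negative in root for CPDK2 (-7.43), NSHB2 (-7.21), PDC1 (-6.82), LAC19 (-6.79) and NSHB1 (-6.77), which were high in Jamaica roots. The nutrient genes NRT2.3 (-3.17), COPT1 (-2.85), PTH1-2 (-2.11) and ALN (-1.77) also belong here, as do GLP2 (-3.90), OsCASPL1D1 (-3.87) and OPR5 (-3.54). KSL7, a diterpene synthase (-7.34), and LAC24, a laccase (-7.09), were not called in root, and their leaf differences were 4.81 and 5.22.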

How the results depend on the processing

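Without any 1 array the calls for F1 minus Jamaica roots ranged from 698 (without F1 root replicate 1) to 2587 (without F1 leaf replicate 1), with 714 without F1 root replicate 2, 806 and 960 without Jamaica root replicates 1 and 2. The range was 550 to 3278 for F1 minus C bao roots, 879 to 2397 for C bao minus Jamaica roots and 108 to 3163 for root minus leaf, each lowest value without a root array of the comparison and each highest without an F1 leaf array. Leaving out a root array of a comparison leaves 1 array in its group and a larger SE, so those lower counts cannot be put down to the array alone. Array weights gave 3363, 4131 and 2795 calls for the 3 root comparisons, and root arrays only gave 3551, 4717 and 3215. The 4 arrays of the F1 and Jamaica comparison alone gave 3148, of which 1573 were among the 1802. Without both F1 leaf arrays, a setting chosen after seeing the data, F1 minus C bao gave 3283. At an adjusted p under 0.01 the counts were 900, 809, 951 and, for root minus leaf, 140. For root minus leaf, no trend gave 299. Same-numbered root arrays did not deviate together (correlations -0.011, 0.014 and -0.038), so no pairing was seen in the root values. Leaf arrays were not checked in this way, and whether same-numbered samples were handled together is not known. The replicate block gave 1282 calls for F1 minus Jamaica roots, 1238 for F1 minus C bao roots and 292 for root minus leaf. The causes were not tested. Median centring turned the median change of all probe sets (0.07 to -0.17), of the jasmonate list (0.22 to -0.03) and of the calcium list (0.05 to -0.20). It also turned the balance of rises and falls in F1 minus Jamaica, F1 minus C bao and root minus leaf, whereas quantile scaling kept more rises than falls in each. Of the 89 called named genes, no trend ended 19 calls (DREB1E, HAK1, OPR5 and AT15 among them), a pseudocount of 1 ended 12 (SWEET12, Cht9, DREB1E, Lsi2, CYP76M5, MADS25 and LAC19 among them) and a pseudocount of 64 ended 4 (ACO1, AT15, ADI1 and DUR3). Robust moderation ended those of RAB21, the largest named rise, and TULP12, the 4 arrays alone those of ADI1 and CYP76M5, median centring those of GLU5, RAA1 and GA20OX3, and quantile scaling those of GR, TULP12 and PHT1-4. Signals carry no detection calls, so what lies at background is not known. The promoter motif search that had been planned was not run.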
